A study of Mus musculus with 23 samples.

Results

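The genes described here encode the receptors for GABA and glutamate, the main inhibitory and excitatory transmitters of the brain, as they were measured in medullary thymic epithelial cells (mTECs) of mice with and without Aire. Genes were taken by symbol: the GABA-A subunits (Gabr followed by a subunit letter), the GABA-B subunits Gabbr1 and Gabbr2, the AMPA, kainate, delta and NMDA receptor subunits (Gria, Grik, Grid and Grin with a digit) and the metabotropic glutamate receptors (Grm with 1 digit). The rule found 49 of the 53402 gene identifiers in the count table. Of these, 19 were GABA-A subunits, 2 GABA-B subunits, 18 subunits of ionotropic glutamate receptors and 8 metabotropic glutamate receptors. The other 2 encode no receptor subunit: Grid2ip encodes a scaffold protein of Purkinje cell synapses, and Grin1os is an antisense RNA at the Grin1 locus. The rule itself reads symbols alone.

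GABA-A receptors are chloride channels built of 5 subunits, usually alpha and beta chains together with a gamma or delta chain, while GABA-B receptors couple to G proteins as a pair of different chains. AMPA, kainate and NMDA receptors are cation channels built of 4 subunits, and metabotropic glutamate receptors couple to G proteins. In the thymus such genes belong to the many tissue-restricted genes that mTECs transcribe and present to developing T cells, and Aire, a nuclear regulator of mature mTECs, is known to raise the transcription of many of them.

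Bulk RNA sequencing covered 23 libraries of sorted C57BL/6 thymic epithelium. EpCAM+ cells without DAPI, CD45 or Ly51 staining were divided by MHC class II into a high (mTEChi) and a low (mTEClo) population. The groups were 8 libraries of WT mTEClo (5 at 4 weeks of age and 3 at 5 weeks, 3 of them female), 4 of Aire KO mTEClo (2 of 5 weeks and 2 of 6 weeks), 7 of WT mTEChi (2 of 4 weeks and 5 of 5 weeks, 2 of them female) and 4 of Aire KO mTEChi (2 of 5 weeks and 2 of 6 weeks). No KO library was female, so that sex and age were distributed differently in the 2 genotypes. The KO allele is not given in the sources used here, nor whether replicates came from separate animals, so that p-values measure the spread between these libraries, which may be technical.

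Counted reads per library ranged from 1602125 to 3938588 over the 4 groups. Levels are given as CPM (each library's counts scaled to one common total with edgeR's TMM factors) and changes as log2 values ± SE. The threshold was 0.05 for the p of edgeR's quasi-likelihood test after Benjamini-Hochberg adjustment over 19310 genes. A group total of 3 counts, the limit that a count of 0 allows, corresponded to 0.122 CPM in WT mTEClo, 0.275 in KO mTEClo, 0.161 in WT mTEChi and 0.299 in KO mTEChi, and this limit and all counting intervals cover counting error only. Aire stood between 753 and 921 CPM in WT mTEChi, between 17.1 and 39.3 in KO mTEChi, between 19.6 and 128 in WT mTEClo and between 0 and 7.58 in KO mTEClo. In 6 libraries, all 4 of KO mTEChi and replicates 3 and 4 of KO mTEClo, all 15 mitochondrially encoded genes were at 0, whereas the other 17 libraries had counts of them. Of the 19310 genes tested, 159 were higher and 167 lower in all 6 libraries than in all 17. The 41 tested receptor genes had 0 among them, which says little at so small a share. The 6 libraries come from both populations, so that a gene that differs strongly between populations could hardly meet this rule. Because all KO mTEChi libraries belong to the 6, they could not be left out of that comparison, and a fit with a term for the 6 libraries rests on replicates 1 and 2 against 3 and 4 of KO mTEClo, which also differ in age.

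WT mTEChi transcribed nearly the whole receptor set. Between 47 and 49 of the 49 genes had a count in each WT mTEChi library, against 34 to 41 in WT mTEClo, 37 to 39 in KO mTEClo and 36 to 40 in KO mTEChi. A mean of at least 10 CPM was reached by 20 genes in WT mTEChi, 14 in KO mTEChi and 11 in each mTEClo group. Of the 49 genes, 0 were at 0 in all WT mTEChi libraries. Genes at 0 in all 4 KO mTEChi libraries included Gabra3, Gabra5, Gabra6, Gabrq and Gria2. Those at 0 throughout in WT mTEClo included Gabra3, Gabra6 and Gabrr3, and in KO mTEClo Gabra2, Gabra6 and Gabrr3.

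**Figure D1:**
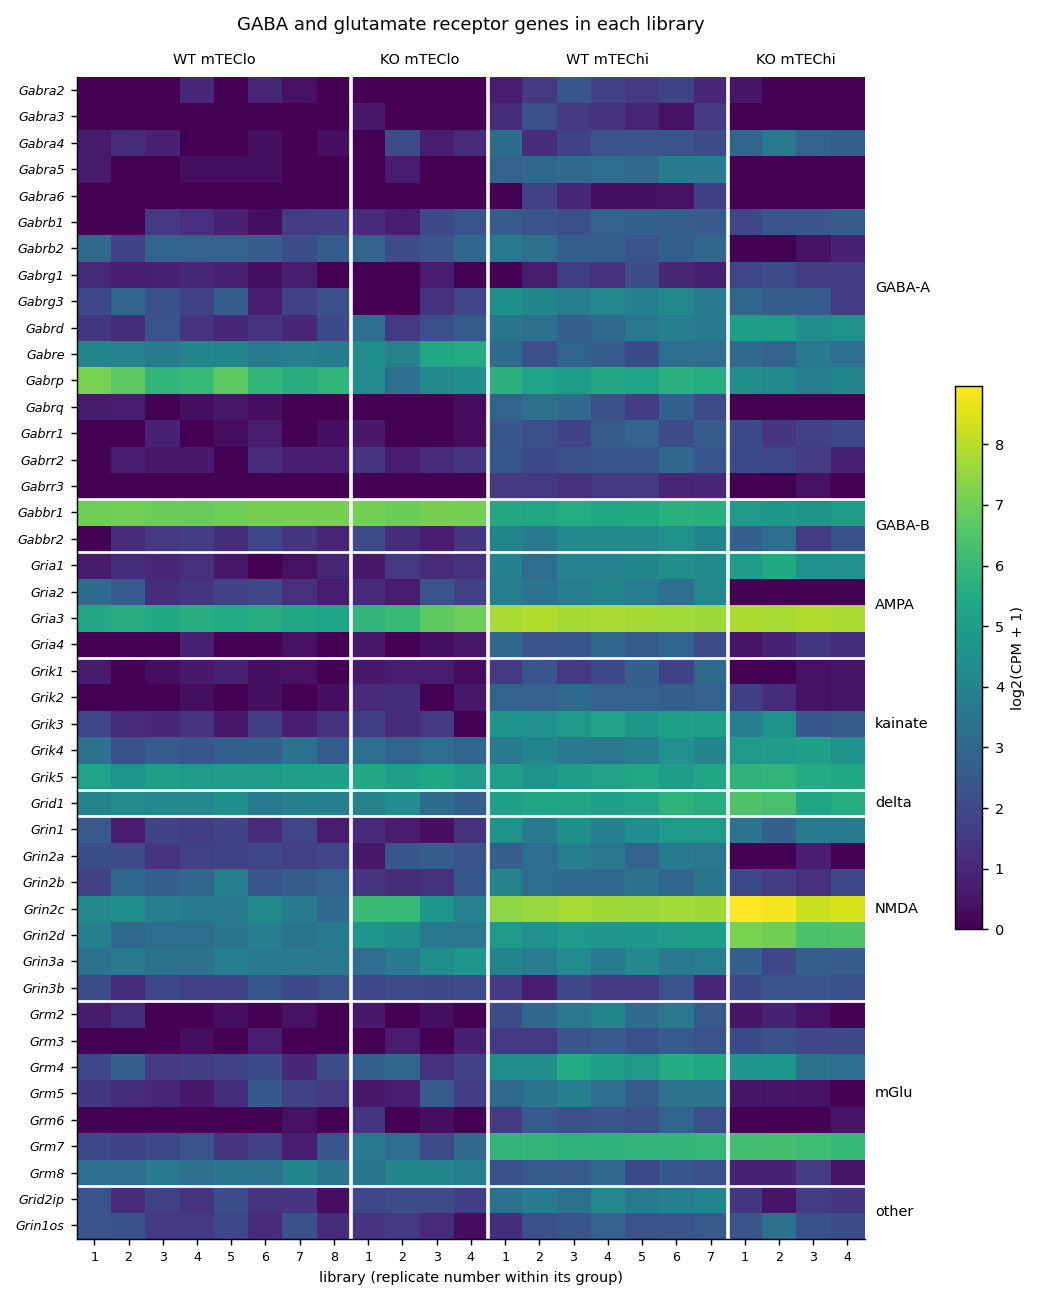
Level of 44 of the genes (rows, grouped by receptor class) in each of the 23 libraries (columns, grouped by population and genotype), as log2(CPM + 1) on the colour scale. Rows such as Gria2, Gabra5 and Gabrq are at the dark end of the scale in all 4 KO mTEChi libraries and lighter in all 7 of WT mTEChi, while Grin2c and Grin2d are lightest in KO mTEChi.

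Per kilobase of exon, the scale used to compare genes with each other, the highest level in WT mTEChi was that of the NMDA subunit gene Grin2c (39.5 ± 3.33 CPM per kb, SD, n = 7). The AMPA subunit gene Gria3 followed at 22.1 ± 1.38, then the GABA-A pi subunit gene Gabrp at 12.3 ± 2.34, the metabotropic receptor gene Grm7 at 9.88 ± 0.478 and Grid1 at 6.69 ± 1.30 CPM per kb. In this order Grin2c, Gria3 and Gabrp were separated by more than their SDs, whereas Grid1 and the next gene, Grik5 (6.42 ± 1.09), were not. Gabra6 stood far lower per length, at 0.375 ± 0.391 CPM per kb. In KO mTEChi the order again began with Grin2c (78.8 ± 17.6 CPM per kb, n = 4) and Gria3 (23.2 ± 0.780), followed by Grin2d (16.6 ± 4.44), Grm7 (12.4 ± 1.19) and Grid1 (10.6 ± 4.11). In WT mTEClo the first places were held by Gabrp (23.8 ± 9.69 CPM per kb, n = 8) and the GABA-B gene Gabbr1 (16.7 ± 0.996), whose levels overlapped within their SDs.

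The filter on low counts left 41 of the 49 genes in the test. Among the 8 others were Gabra2, Gabra3, Gabra6, Gabrg1, Gabrr3 and the kainate subunit gene Grik1, whose values are given by counts. Of the 41, 15 were over the filter's level in fewer than 4 libraries outside WT mTEChi, so that they entered the test through the group in which they were high, and counts of changed genes are given here as a description of the list. The libraries keep no strand, and 22 of the 49 genes share exon bases with another annotated gene. The shared part was 45.21% of Grin1os, which overlaps Grin1, 32.13% of Grin3b, which overlaps Tmem259, 11.05% of Grm6, 9.66% of Grin2d, 9.60% of Grm2 and 9.52% of Grid2ip. Reads of such parts cannot be assigned to one gene of the pair by strand.

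The comparison of the 2 populations in WT mice asks which receptor genes come with the MHC class II high state. In WT mTEChi 32 of the 41 tested genes were higher than in WT mTEClo, beside 36.7% of all genes tested, and 4 were lower, beside 33.4%. The median change was 2.32, beside 0.00 over all genes tested. In 30 genes every mTEChi library lay above every mTEClo library (24.8% of all genes tested), and in 3 every one lay below (19.5%). A higher level in such sorted bulk samples can come from more cells of a type or from more RNA per cell, which cannot be told apart here. Some markers of other cells were also higher in WT mTEChi. These were 5 of 5 myeloid genes, 3 of 3 tested genes each of thymocytes and B cells, and 3 of 5 of cortical epithelium. Of 6 glial genes 5 were higher and 1 lower. Of 9 tested neuronal genes 5 were higher and 4 lower, and of 6 neuroendocrine genes 2 were higher and 3 lower. Of 4 fibroblast and 3 tested endothelial genes, 2 each were higher and 1 each lower. The summed level of the myeloid list was 254 to 317 CPM in WT mTEChi and 27.3 to 61.1 in WT mTEClo, that of the thymocyte list 46.1 to 60.1 and 4.58 to 12.8, and that of the glial list 49.2 to 67.8 and 27.0 to 63.9, with 0 genes of these lists at 0 throughout either group. Their part in the result was not tested.

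Most of the glutamate receptor genes were among the 32. Grm7, whose receptor sits at presynaptic release sites, stood between 54.3 and 61.4 CPM in WT mTEChi (median 58.2) and between 0.672 and 4.20 in WT mTEClo (median 2.67). The ranges lay far apart, and the change was 4.40 ± 0.19 (adjusted p = 2.7e-18). Gria3 went from 43.4 ± 4.47 CPM in mTEClo (n = 8) to 218 ± 13.6 in mTEChi (n = 7), a change of 2.32 ± 0.11 (adjusted p = 3.1e-17). Grin2c went from 14.2 ± 4.19 to 199 ± 16.7 CPM, a change of 3.85 ± 0.25 (adjusted p = 1.0e-11). Gria1 rose by 4.32 ± 0.30 (adjusted p = 1.4e-13) and Grik3 by 4.39 ± 0.35 (adjusted p = 1.1e-11). Grm6 had 1 count in mTEClo and 77 in mTEChi, a ratio of 102 (95% counting interval 17.7 to 4063.2).

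The 4 genes lower in mTEChi were Gabbr1, Gabre, Gabrp and Grm8. Gabbr1 stood between 118 and 139 CPM in WT mTEClo (median 129) and between 40.2 and 52.0 in WT mTEChi (median 42.6), a change of -1.54 ± 0.08 (adjusted p = 5.8e-17). Its partner Gabbr2 moved the other way, from 1.47 ± 0.822 to 17.1 ± 3.38 CPM (3.43 ± 0.28, adjusted p = 5.6e-12), so that the 2 chains of the GABA-B receptor had their higher levels in different populations. Grm8 (-1.17 ± 0.20, adjusted p = 9.2e-06) was the one metabotropic receptor gene of the 8 that was lower in mTEChi. For Gabre the change was -1.21 ± 0.23 (adjusted p = 3.5e-05) and for Gabrp -0.94 ± 0.20 (adjusted p = 2.1e-04). Among 5-week males alone, of which WT mTEClo had only replicate 6, the changes were smaller, at -0.68 and -0.51. Gabrb2, Grik5, Grin2b, Grin3a and Grin3b did not pass. Grin1os, one of the 32, did not pass without WT mTEClo replicate 6 (0.72, adjusted p = 0.055) or 8 (0.69, adjusted p = 0.06) or WT mTEChi replicate 4 (0.70, adjusted p = 0.087).

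**Figure D2:**
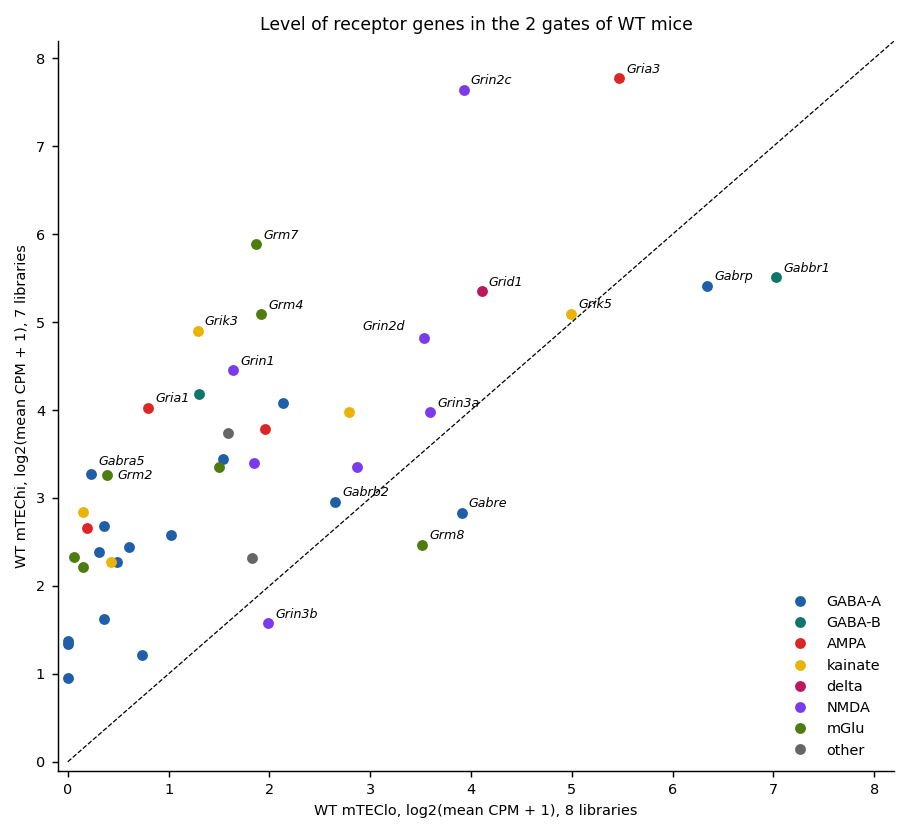
Mean level of 44 of the genes in WT mTEClo (x axis, 8 libraries) and WT mTEChi (y axis, 7 libraries), both as log2(mean CPM + 1), coloured by receptor class, with the line of equal level dashed. Most points lie above the line, with Gabbr1, Gabrp, Gabre, Grm8 and Grin3b below it.

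Setting KO beside WT mTEChi shows which of these genes differ without Aire in the population with the highest Aire level. In KO mTEChi 25 of the 41 tested genes were lower, beside 28.0% of all genes tested, and 7 were higher, beside 25.7%. The median change was -1.29, also with the 3 tested genes at 0 set at their bound, beside -0.01 over all genes tested. In 21 genes the highest KO value was below the lowest WT value (19.8% of all genes tested), and in 6 the lowest KO value was above the highest WT value (18.2%). With a term for the 6 libraries without mitochondrial counts, 15 genes were lower, beside 17.8% of all genes tested in that fit, and 6 higher, beside 17.7%, and 19 of the 32 calls remained. Among the 12 calls that ended were those of Gabbr2, Gabra5, Gabrr2, Gria1, Gria4, Grik2, Grik3, Grik4, Grin1, Grm2 and Grm6, and the sign of Grm4 turned. The changes of Gabrr2 (-1.40), Gria4 (-2.58), Grik4 (0.93) and Grin1 (-1.29) were at least as large with the term as without it, at adjusted p between 0.12 and 0.4, while those of Gria1 (0.69) and Grik3 (-0.32) were smaller. By class, the lower and higher calls were 7 and 1 of 12 tested GABA-A genes, 2 and 0 of 2 GABA-B genes, 2 and 1 of 4 AMPA genes, 2 and 2 of 4 kainate genes, 4 and 2 of 7 NMDA genes and 6 and 0 of 8 metabotropic receptor genes.

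The levels of the receptor classes did not all fall with the number of calls. The summed level of the 7 NMDA genes was 283 ± 23.4 CPM in WT mTEChi and 528 ± 116 in KO mTEChi, and the ranges, 253 to 315 and 409.7 to 661, did not overlap. Grin2c alone made up 199 ± 16.7 and 397 ± 88.5 CPM of them and Grin2d 27.3 ± 3.29 and 111 ± 29.5. The other 5 NMDA genes summed to 56.4 ± 8.94 CPM in WT and 20.8 ± 4.18 in KO. The summed level of the 19 GABA-A genes was 151 ± 19.4 CPM in WT and 86.8 ± 9.20 in KO, again without overlap. The 4 AMPA genes summed to 252 ± 9.93 and 259 ± 6.56 CPM, with overlapping ranges, and Gria3 alone made up 218 ± 13.6 and 229 ± 7.69 CPM of them. All 47 subunit genes together summed to 1018.1 ± 54.7 CPM in WT and 1159.9 ± 183 in KO mTEChi.

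**Figure D3:**
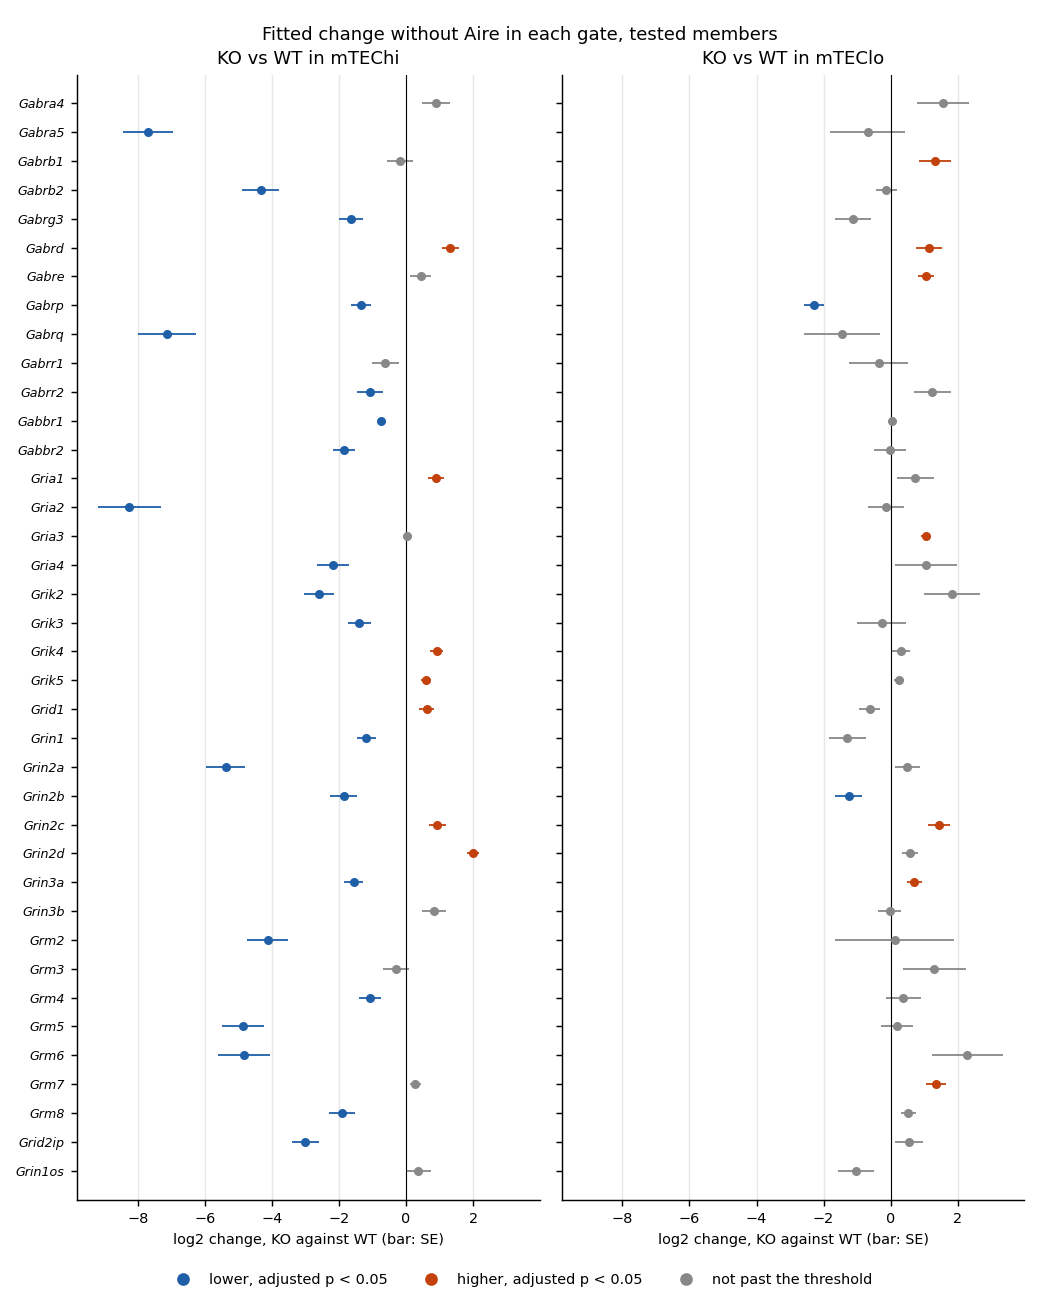
Fitted log2 change of KO against WT (x axis, point, with the SE as a bar) of 38 tested genes in mTEChi (left) and mTEClo (right), coloured by the call at an adjusted p under 0.05. In mTEChi most coloured points lie left of 0, among them Grin2a and Gabrb2, and in mTEClo most lie right of it. The prior count of the fit sets where genes with almost no counts in a group are drawn, so that those points are no bounds.

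Markers of other cells moved as well. Of a list of 6 glial markers all 6 were lower in KO mTEChi, and their summed level ranged from 9.00 to 11.3 CPM in KO and from 49.2 to 67.8 in WT mTEChi, where 0 of the 6 were at 0 throughout. Of 9 tested neuronal markers 6 were lower and 1 higher, Nefl was at 0 in all KO mTEChi libraries, and the summed level of the list of 10 was 767 to 898 CPM in KO and 733 to 852 in WT. The 6 neuroendocrine markers, 2 of them lower and 2 higher, summed to 366 to 486 CPM in KO and 302 to 399.5 in WT. Of 5 myeloid markers 4 were lower and 1, Lyz2, was higher, and their sum was 305 to 350.0 CPM in KO and 254 to 317 in WT. Of 3 tested B cell markers 1 was lower and 1, Cd79b, higher, with a sum of 43.1 to 50.9 CPM in KO and 27.9 to 35.8 in WT. Of 3 tested thymocyte markers 2 were lower, and the list summed to 32.2 to 44.7 CPM in KO and 46.1 to 60.1 in WT. Of 4 fibroblast markers 3 were lower, among them Col1a1 (116 ± 47.6 CPM in WT and 0.912 ± 0.432 in KO), and 1 was higher, with sums of 63.6 to 99.4 and 96.6 to 245 CPM. The 5 cortical epithelial markers, 1 lower and 2 higher, summed to 577 to 693 CPM in KO and 423 to 562 in WT. The leukocyte gene Ptprc stood between 5.43 and 6.96 CPM in KO mTEChi and between 9.64 and 35.9 in WT mTEChi. The epithelial gene Epcam stood between 202 and 324 CPM in all 23 libraries. Of 8 mTEC markers, Aire and Epcam among them, 3 were lower in KO mTEChi and 0 higher. Their sums were 1360.0 to 1598.8 CPM in KO and 2224.2 to 2717.2 in WT. Of 6 genes of the sort, Ptprc and Epcam among them, 2 were lower and 0 higher. The sort gene Enpep stood between 1.23 and 5.13 CPM in KO and between 35.9 and 61.2 in WT. The part of these markers in the receptor results was not tested.

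Among the AMPA receptor genes, Gria2 fell furthest. It encodes the subunit that limits calcium entry through AMPA receptors and lies on chromosome 3 (80681450 to 80802835 of GRCm38, minus strand, ENSMUSG00000033981). Its level in WT mTEChi was 8.71 CPM at the lowest, 12.9 at the median and 16.8 at the highest, and 0 in each of the 4 KO mTEChi libraries, against 242 counts over the WT group. Gria2 was thus at least 43.0-fold lower in KO mTEChi (adjusted p = 7.4e-08). In mTEClo it was counted in both genotypes, from 0.600 to 8.04 CPM in WT (median 1.93) and at 1.08, 0.626, 3.87 and 2.43 CPM in KO, without a call (-0.14 ± 0.53, adjusted p = 0.88). Gria4 fell by 2.17 ± 0.48 on the log2 scale in mTEChi (adjusted p = 3.4e-04). Gria1 rose from 15.3 ± 3.79 to 29.3 ± 9.80 CPM (0.89 ± 0.24, adjusted p = 0.0023), and its 4 KO values, 29.8, 43.0, 22.3 and 22.1 CPM, all lay above the WT maximum of 20.7. Gria3, the AMPA gene with the highest level, did not pass, with 218 ± 13.6 CPM in WT and 229 ± 7.69 in KO (0.04 ± 0.13, adjusted p = 0.80).

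Of the 4 tested kainate receptor genes 2 fell and 2 rose. Grik2 (chromosome 10, 49094833 to 49788766, minus strand, ENSMUSG00000056073) encodes a subunit that forms channels on its own. It stood between 5.49 and 7.50 CPM in WT mTEChi (median 6.04) and at 2.19, 1.23, 0.342 and 0.418 CPM in KO. Every KO value lay below every WT value, the change was -2.60 ± 0.45 (adjusted p = 1.9e-05), and it was -0.64 (adjusted p = 0.80) with the term for the 6 libraries. Its values in mTEClo were 0 to 0.305 CPM in WT (median 0) and 1.08, 1.25, 0 and 0.486 CPM in KO. Grik3 fell by 1.39 ± 0.34 on the log2 scale (adjusted p = 0.0013), and its KO values of 13.6, 22.5, 4.45 and 5.01 CPM reached into the WT range of 22.2 to 36.2. Grik4 and Grik5 encode the subunits that assemble with the other kainate chains. Grik4 rose by 0.91 ± 0.20 (adjusted p = 4.3e-04), without overlap, and Grik5 by 0.59 ± 0.14 (adjusted p = 5.6e-04), with overlap. Grik1, not tested, had 73 counts in WT mTEChi and 2 in KO, a ratio of 19.7 (95% counting interval 5.25 to 166).

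The delta receptor gene Grid1 had 87.3, 80.6, 38.7 and 45.5 CPM in KO mTEChi against 32.0 to 54.2 in WT (0.61 ± 0.23, adjusted p = 0.029). The call for Grid1 ended without KO replicate 1 (0.42, adjusted p = 0.16) or 2 (0.48, adjusted p = 0.12), without WT replicate 1 (adjusted p = 0.055) or 3 (adjusted p = 0.059), with upper quartile factors (0.50, adjusted p = 0.07), without the filter (adjusted p = 0.084) and in a fit of those groups alone (adjusted p = 0.053). Grid2ip (chromosome 5, 143357338 to 143392152, plus strand, ENSMUSG00000010825), a scaffold gene of Purkinje cell synapses, ranged from 8.67 to 16.9 CPM in WT mTEChi (median 12.0). Its KO values were 1.76, 0.409, 2.05 and 1.67 CPM, all below WT (-3.00 ± 0.39, adjusted p = 2.7e-07). In mTEClo Grid2ip stood between 0.300 and 4.02 CPM in WT (median 1.63) and at 2.71, 3.13, 3.28 and 2.19 CPM in KO.

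NMDA receptors combine the obligatory Grin1 chain with glutamate-binding chains from Grin2a to Grin2d or with Grin3 chains, and these changed in opposite directions. Grin2d (chromosome 7, 45831883 to 45878378, minus strand, ENSMUSG00000002771) had the smallest adjusted p of the 41 genes in this comparison. It ranged from 22.2 to 31.8 CPM in WT mTEChi (median 27.3) and stood at 143, 128, 82.2 and 89.4 CPM in KO. Every KO value was above every WT value, and the change was 1.99 ± 0.18 (adjusted p = 8.9e-10). In mTEClo its values were 7.63 to 14.4 CPM in WT (median 10.3) and 25.4, 21.3, 11.3 and 10.7 CPM in KO, without a call (0.58 ± 0.24, adjusted p = 0.086). Grin2c rose from 199 ± 16.7 CPM in WT mTEChi to 397 ± 88.5 in KO (0.93 ± 0.25, adjusted p = 0.0037), with KO values of 497, 443, 304 and 343 CPM above the WT range of 169 to 221. With the term for the 6 libraries the changes of Grin2d and Grin2c were 3.08 and 2.68.

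The other glutamate-binding NMDA chains fell. Grin2a (chromosome 16, 9567898 to 9995560, minus strand, ENSMUSG00000059003), a chain of the mature forebrain, ranged from 5.58 to 13.2 CPM in WT mTEChi (median 10.6). In KO mTEChi it was at 0, 0, 0.685 and 0 CPM, 2 counts against 184 in WT, so that it was 49.6-fold lower (95% counting interval 13.5 to 413, adjusted p = 1.1e-08). In mTEClo Grin2a was counted in every library, from 1.53 to 3.45 CPM in WT (median 2.62) and at 0.541, 4.38, 5.06 and 4.13 CPM in KO. The gene was thus counted in all 12 mTEClo libraries and in 1 of the 4 KO mTEChi libraries. Grin2b fell from 9.25 ± 2.7 to 2.35 ± 0.797 CPM in mTEChi (-1.86 ± 0.40, adjusted p = 3.0e-04), and Grin3a from 14.7 ± 3.15 to 4.76 ± 1.30 CPM (-1.56 ± 0.28, adjusted p = 3.5e-05). Grin1 fell from 20.9 ± 6.09 to 9.78 ± 2.91 CPM (-1.19 ± 0.28, adjusted p = 6.5e-04), with 1 KO value of 12.1 above the lowest WT value of 12.0. Its antisense partner Grin1os (0.37 ± 0.38, adjusted p = 0.43) and Grin3b (0.82 ± 0.36, adjusted p = 0.052) did not pass.

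Of the 8 metabotropic glutamate receptor genes 6 fell and 0 rose. Grm5 (chromosome 7, 87584168 to 88134907, plus strand, ENSMUSG00000049583), whose receptor acts through phospholipase C, ranged from 5.10 to 13.9 CPM in WT mTEChi (median 9.64). In KO mTEChi it stood at 0.439, 0.409, 0.342 and 0 CPM, 3 counts against 170 in WT and 30.5-fold lower (95% counting interval 10.3 to 149.6, adjusted p = 2.2e-07). In mTEClo its values were 0.524 to 4.58 CPM in WT (median 1.50) and 0.541, 0.626, 4.77 and 1.94 CPM in KO.

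Grm2 (chromosome 9, 106643095 to 106656082, minus strand, ENSMUSG00000023192), a presynaptic receptor that lowers cyclic AMP, ranged from 3.10 to 15.4 CPM in WT mTEChi (median 7.80) and stood at 0.439, 0.818, 0.342 and 0 CPM in KO. All KO values lay below all WT values (-4.13 ± 0.62, adjusted p = 2.7e-06), and with the term for the 6 libraries the change was -3.23 (adjusted p = 0.39). In mTEClo it was near the limit in both genotypes, with 5 counts over the WT group and 2 over the KO group. Grm6 (chromosome 11, 50850685 to 50866208, plus strand, ENSMUSG00000000617), the receptor of ON bipolar cells in the retina, ranged from 1.86 to 6.45 CPM in WT mTEChi (median 3.60). It had 1 count in the 4 KO libraries, at 0, 0, 0 and 0.418 CPM, a ratio of 41.5 (95% counting interval 7.23 to 1660.2, adjusted p = 7.5e-06). With the term for the 6 libraries its change was -2.50 (adjusted p = 0.40). Its mTEClo values were 0 to 0.336 CPM in WT (median 0) and 1.62, 0, 0.298 and 0 CPM in KO.

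Grm8 fell from 4.54 ± 1.48 to 1.04 ± 0.705 CPM (-1.92 ± 0.39, adjusted p = 1.5e-04). Grm4 fell from 33.0 ± 10.5 to 16.9 ± 9.35 CPM (-1.07 ± 0.32, adjusted p = 0.0069), but its KO values of 24.6, 25.4, 9.24 and 8.35 CPM overlapped the WT range of 19.8 to 44.5, and the sign turned with the term for the 6 libraries (0.58, adjusted p = 0.61). Grm7 and Grm3 did not pass. Grm7 stood at 58.2 ± 2.81 CPM in WT and 72.8 ± 7.01 in KO mTEChi (0.28 ± 0.17, adjusted p = 0.16), although its 4 KO values all lay above the WT values.

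**Figure D4:**
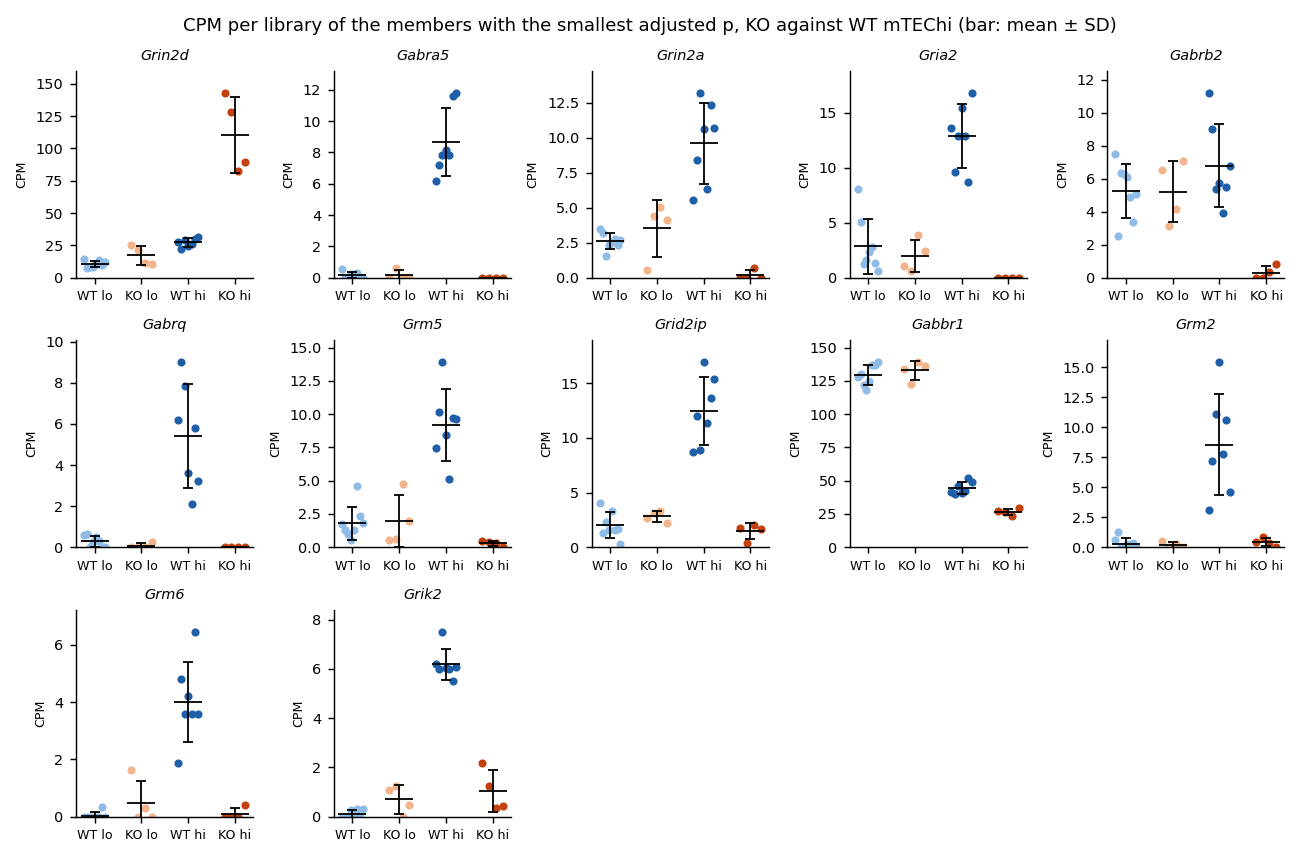
CPM of 12 genes in each library (points) with the group mean and SD (line and bar), by group on the x axis, each panel with its own y axis from 0. The genes are among the 14 with the smallest adjusted p for KO against WT mTEChi. Gabra5, Gria2 and Gabrq are at 0 in all 4 KO mTEChi libraries, Grin2d is highest there, and Gabbr1 is highest in both mTEClo groups.

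In the GABA-A family 7 of the 12 tested genes fell and 1 rose. Gabra5 (chromosome 7, 57407672 to 57510059, minus strand, ENSMUSG00000055078), an alpha chain of hippocampal extrasynaptic receptors, ranged from 6.20 to 11.8 CPM in WT mTEChi (median 7.85) and was at 0 in each of the 4 KO mTEChi libraries. That is 166 counts against 0, at least 29.0-fold lower in KO (adjusted p = 4.9e-09). In WT mTEClo it reached 0.574 CPM at most (median 0.127), and in KO mTEClo it stood at 0, 0.626, 0 and 0 CPM. Its call ended with the term for the 6 libraries (-4.79, adjusted p = 1). Gabrq (chromosome X, 72825178 to 72842602, plus strand, ENSMUSG00000031344), which encodes the theta chain, ranged from 2.10 to 9.00 CPM in WT mTEChi (median 5.81) and was at 0 in all 4 KO mTEChi libraries, at least 18.1-fold lower (adjusted p = 1.5e-07). In mTEClo it stood between 0 and 0.636 CPM in WT (median 0.284) and at 0, 0, 0 and 0.243 CPM in KO.

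Most GABA-A receptors hold beta chains. Gabrb2 (chromosome 11, 42419757 to 42629028, plus strand, ENSMUSG00000007653) ranged from 3.9 to 11.2 CPM in WT mTEChi (median 5.74). In KO mTEChi it stood at 0, 0, 0.342 and 0.835 CPM, 3 counts against 116 and 20.8-fold lower (95% counting interval 6.96 to 103, adjusted p = 1.4e-07). In mTEClo it had about the level of WT mTEChi in both genotypes, 2.54 to 7.47 CPM in WT (median 5.60) and 6.50, 3.13, 4.17 and 7.04 CPM in KO. In KO mice Gabrb2 was 18.4-fold lower in mTEChi than in mTEClo (95% counting interval 6.00 to 91.7, adjusted p = 1.0e-06), whereas in WT the populations did not differ past the threshold (0.23 ± 0.24, adjusted p = 0.41).

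Gabrb1 did not pass in mTEChi (-0.17 ± 0.39, adjusted p = 0.73). The gamma chain gene Gabrg3 fell from 15.9 ± 3.33 to 4.89 ± 2.05 CPM (-1.64 ± 0.37, adjusted p = 4.3e-04).

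Gabrp, the pi chain gene known mainly outside the nervous system, fell in both populations, from 41.6 ± 7.91 to 17.0 ± 3.09 CPM in mTEChi (-1.35 ± 0.29, adjusted p = 4.6e-04). The rho chain gene Gabrr2, of the retina, fell by 1.07 ± 0.39 on the log2 scale (adjusted p = 0.022). Its call ended without WT mTEChi replicate 6 (-0.89, adjusted p = 0.072), without KO mTEChi replicate 4 (-0.81, adjusted p = 0.095), among 5-week males (-0.73, adjusted p = 0.25) and with the replicate block (-0.73, adjusted p = 0.21). Gabrd, the delta chain gene of receptors outside synapses, was the one GABA-A gene that rose, from 9.90 ± 2.69 to 26.2 ± 5.44 CPM (1.32 ± 0.26, adjusted p = 1.3e-04), and its KO values of 30.7, 30.7, 19.9 and 23.4 CPM all exceeded the WT maximum of 13.6. Gabra4 had 3.81 ± 2.12 CPM in WT and 7.31 ± 2.54 in KO and did not pass (0.90 ± 0.42, adjusted p = 0.07), nor did Gabre (0.43 ± 0.30, adjusted p = 0.23) or Gabrr1 (-0.62 ± 0.40, adjusted p = 0.20).

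The GABA-A genes outside the test had few counts in any group. The alpha gene Gabra2 had 41 counts in WT mTEChi and 1 in KO, a ratio of 22.1 (95% counting interval 3.75 to 894). Gabrr3 had 28 and 1, a ratio of 15.1 (2.49 to 617). Gabra3 (27 counts in WT) and Gabra6 (16) were at 0 in KO mTEChi, at least 5.33-fold and 3.13-fold lower. Gabrg1 had 1.32 ± 1.11 CPM in WT mTEChi and 2.51 ± 0.573 in KO, with overlapping values.

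Several GABA-A genes lie in clusters, of which 3, not chosen by their values, are described. On chromosome 5 (70751047 to 72149037) the genes Gabrg1, Gabra2, Gabra4 and Gabrb1 had 233 counts over the WT mTEChi libraries and 139 over those of KO, where Gabra2 stood at 1 count in KO beside Gabra4 at 73 and Gabrb1 at 40. On chromosome X (72255999 to 72842602) the sums were 233 and 88, with all 88 from Gabre, and on chromosome 4 (33062999 to 33163588) the rho genes Gabrr1 and Gabrr2 had 165 and 47.

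**Figure D5:**
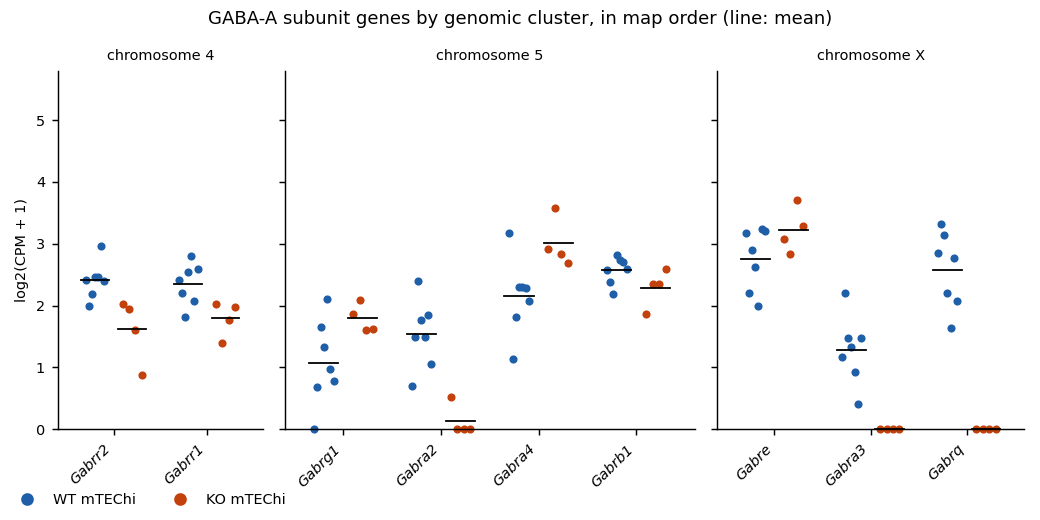
Level of the GABA-A genes in 3 genomic clusters, in map order along the x axis of each panel, as log2(CPM + 1) on the y axis, for each WT mTEChi (blue) and KO mTEChi (orange) library, with the mean as a line. On chromosomes 5 and X genes at 0 or at 1 count, such as Gabra2 and Gabrq, have neighbours that are still counted.

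Both GABA-B genes fell in mTEChi without Aire. Gabbr1 (chromosome 17, 37045966 to 37075067, plus strand, ENSMUSG00000024462), which binds GABA, ranged from 40.2 to 52.0 CPM in WT mTEChi (median 42.6) and stood at 27.6, 26.6, 23.6 and 29.2 CPM in KO. The groups did not overlap, and the change was -0.74 ± 0.11 (adjusted p = 9.9e-07). In mTEClo it was higher in both genotypes and nearly equal between them, 118 to 139 CPM in WT (median 129) and 134, 123, 139 and 136 CPM in KO (0.04 ± 0.09, adjusted p = 0.79). Gabbr2, which couples to the G protein, fell in mTEChi from 17.1 ± 3.38 to 4.93 ± 2.63 CPM (-1.85 ± 0.32, adjusted p = 2.0e-05), and with the term for the 6 libraries its change was -0.93 (adjusted p = 0.45).

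The sequence just before annotated RefSeq starts of these genes was read (GRCm38.p6 assembly). In it 34 of the 49 genes had an annotated start, with 42 windows of the 250 bases before the start. Some of these starts lie within the gene spans given above, which come from another annotation. The windows below are those of 2 genes at 0 in all KO mTEChi libraries (Gria2 and Gabrq) and of the 2 NMDA genes that rose (Grin2c and Grin2d). They are shown as examples from both directions of change. They are written 5′ to 3′ on the strand of the gene, with CpG dinucleotides in capitals. Positions are chr3:80802836-80803085, chrX:72824928-72825177, chr11:115267244-115267493 and chr7:45866682-45866931, the second on the plus strand and the others on the minus strand. The Grin2d window lies inside the span of the gene, which reaches 45878378, and so is not upstream of that span.
Gria2: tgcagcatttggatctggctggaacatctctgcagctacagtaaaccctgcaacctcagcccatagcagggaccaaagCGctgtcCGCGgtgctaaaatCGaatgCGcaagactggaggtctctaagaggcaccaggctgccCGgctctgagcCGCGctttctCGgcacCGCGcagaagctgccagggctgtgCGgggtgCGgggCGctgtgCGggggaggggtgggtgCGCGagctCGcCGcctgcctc
Gabrq: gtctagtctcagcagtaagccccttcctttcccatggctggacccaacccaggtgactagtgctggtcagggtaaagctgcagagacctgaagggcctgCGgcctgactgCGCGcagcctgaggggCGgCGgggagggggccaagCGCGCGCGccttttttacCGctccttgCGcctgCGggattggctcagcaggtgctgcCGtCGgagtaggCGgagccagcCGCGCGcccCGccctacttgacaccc
Grin2c: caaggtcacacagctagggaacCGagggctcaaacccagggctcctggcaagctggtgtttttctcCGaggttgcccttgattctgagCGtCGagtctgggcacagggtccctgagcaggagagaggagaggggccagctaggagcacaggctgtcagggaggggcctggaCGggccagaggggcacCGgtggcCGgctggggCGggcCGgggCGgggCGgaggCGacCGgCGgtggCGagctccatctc
Grin2d: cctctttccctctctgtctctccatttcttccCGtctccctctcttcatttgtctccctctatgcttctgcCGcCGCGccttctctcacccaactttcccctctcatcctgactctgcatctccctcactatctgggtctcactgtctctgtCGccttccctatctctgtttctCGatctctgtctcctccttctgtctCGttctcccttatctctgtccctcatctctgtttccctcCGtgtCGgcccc

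The windows of Gria2 and Gabrq held 19 CpG each, while those of Grin2c and Grin2d, the last inside its gene span, held 15 and 9. The windows of other genes at 0 in KO mTEChi were poorer in CpG, with 9 for Gabra5, 2 for Gabra6 and 0 for Gabra3. Over all 32851 windows of the table the median was 6 and the upper quartile 16. Genes that fell in KO mTEChi and had a window (17 of them, each with its richest window) had a median of 16.0 CpG and a range of 1 to 42, and the 4 that rose had a median of 12.0 and a range of 8 to 36. The ranges of the 2 directions overlapped. The motif TATAAA, searched on both strands, lay in 12.4% of all windows and in those of Gabra3, Gabrb2 and Grin3b.

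The motif TTCAGCACC, the left arm of the element bound by the neuronal gene repressor REST, was searched on both strands and lay in 0.301% of all windows and in that of 1 receptor gene, Grm2. It is shown because the right arm GGACAG follows in the same window. In the 37 bases at chr9:106656323-106656359 (minus strand, 5′ to 3′) both arms are in capitals, and the left one ends 234 bases before the annotated start.
Grm2: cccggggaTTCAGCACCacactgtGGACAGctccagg

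The arms lie 7 bases apart. Both arms within 10 bases of each other, on either strand, were found in 6 of the 32851 windows (0.0183%). A match describes these letters and no binding was measured.

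The comparison of KO with WT in mTEClo asks the same question in the population with little Aire. Of the 41 tested genes, 3 were lower, beside 9.69% of all genes tested, and 7 were higher, beside 12.0%, with a median change of 0.31 beside 0.01. In 2 genes the highest KO value was below the lowest WT value (5.79% of all genes tested), and in 1 the reverse held (5.86%). These shares lay near or below those of all genes tested, apart from the higher calls, 17.1% of the tested receptor genes. Markers of other cells differed here too. Of 5 cortical epithelial markers 4 were higher, with sums of 283 to 404 CPM in KO and 179 to 226 in WT. Of 3 tested endothelial markers 2 were higher, and of 3 tested B cell markers 1. Of 5 myeloid markers 1 was lower and 1 higher, with sums of 82.7 to 116 and 27.3 to 61.1 CPM. Of 9 tested neuronal markers 1 was lower and 1 higher. Of 6 glial and 3 tested thymocyte markers 1 each was lower. The part of these markers was not tested.

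Gabrp had the largest fall there. It stood between 49.7 and 141 CPM in WT mTEClo (median 62.7) and at 18.9, 8.77, 17.6 and 19.9 CPM in KO, all below WT (-2.28 ± 0.29, adjusted p = 4.2e-06). Grin2b fell by 1.25 ± 0.40 on the log2 scale (adjusted p = 0.025). The call for Grin2b ended without KO mTEClo replicate 1 (-1.15, adjusted p = 0.057), 2 (-1.13, adjusted p = 0.054) or 3 (-1.04, adjusted p = 0.11), and with age in the fit (-0.55, adjusted p = 0.59).

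Gria3 rose in KO mTEClo with the smallest p of the 7. Its values were 36.0 to 49.0 CPM in WT mTEClo (median 42.9) and 58.5, 66.4, 105 and 126 CPM in KO, without overlap (1.04 ± 0.14, adjusted p = 2.8e-06). Among 5-week males, of which WT mTEClo had only replicate 6, the change was 0.39. Grm7 rose by 1.35 ± 0.29 (adjusted p = 0.0014) and Grin2c by 1.45 ± 0.33 (adjusted p = 0.0036). The Grin2c values of the KO mTEClo libraries were 67.7 and 63.9 CPM at 5 weeks and 25.0 and 14.8 CPM at 6 weeks, against 7.79 to 20.4 in WT. Gabre rose by 1.05 ± 0.24 (adjusted p = 0.0022), with 20.6, 15.0, 39.3 and 43.2 CPM in KO against 11.7 to 16.1 in WT. Its high values were those of the 2 libraries among the 6 without mitochondrial counts, and without them the change was 0.26 (adjusted p = 0.55).

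The last 3 calls in mTEClo rested on single libraries. For Gabrd (1.14 ± 0.39, adjusted p = 0.034) they were WT mTEClo replicates 2, 4, 5 and 6, KO mTEClo replicates 1 and 4 and WT mTEChi replicate 5, without which the adjusted p lay between 0.05 and 0.16. Grin3a (0.71 ± 0.23, adjusted p = 0.026) did not pass without WT mTEClo replicate 3 or 4 or KO mTEClo replicate 3 or 4. Gabrb1 (1.31 ± 0.48, adjusted p = 0.048) did not pass without any 1 of 15 libraries, with adjusted p between 0.052 and 0.31. Without the 2 libraries of the 6 the changes were -0.10 for Grin3a and -0.19 for Gabrb1, neither past the threshold, and Gabrd was at 1.35 (adjusted p = 0.077). Over the whole list, the KO mTEClo group without those 2 libraries gave 4 lower genes, beside 8.83% of all genes tested in that fit, and 5 higher, beside 9.13%.

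The KO effect was tested for a difference between mTEChi and mTEClo in the same fit. It was more negative in mTEChi for 17 of the 41 genes, beside 14% of all genes tested, and more positive for 2, beside 10.8%, with a median of -1.11 beside -0.02. The 2 effects come from different libraries, and the same 41 genes are compared. Grin2a had the smallest p (-5.88 ± 0.73, adjusted p = 7.7e-07), followed by Grin3a (-2.27 ± 0.35, adjusted p = 1.7e-05) and Gabrb2 (-4.21 ± 0.65, adjusted p = 1.8e-05), 3 genes that were lower than in WT in KO mTEChi and were not lower in KO mTEClo. The 2 genes in the other direction were Grin2d (1.41 ± 0.29, adjusted p = 6.2e-04) and Grid1 (1.25 ± 0.37, adjusted p = 0.015). Among 5-week males, of which WT mTEClo had only replicate 6, the difference was -1.47 for Grin3a and 0.31 for Grid1. Without the 2 KO mTEClo libraries of the 6 that of Grid1 was 0.54 (adjusted p = 0.34). For Gabrp (0.93 ± 0.40, adjusted p = 0.093), Gabrd (0.18 ± 0.49, adjusted p = 0.84) and Grin2c (-0.52 ± 0.40, adjusted p = 0.38), which passed with the same sign in both populations, no difference was detectable.

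Without Aire, mTEChi and mTEClo still differed in many receptor genes. In KO mice 19 of the 41 genes were higher in mTEChi than in mTEClo, beside 29.2% of all genes tested, and 8 were lower, beside 28.0%. The median change was 0.79, beside 0.00. In 16 genes every mTEChi library lay above every mTEClo library (25.0% of all genes tested) and in 8 every one lay below (22.1%). Gria1 (4.47 ± 0.37, adjusted p = 1.1e-11), Grm7 (3.33 ± 0.23, adjusted p = 2.0e-13), Grin2c (3.33 ± 0.32, adjusted p = 8.9e-09) and Grin2d (2.79 ± 0.22, adjusted p = 1.1e-11) were among the 19. The 8 lower genes were Gabbr1 (-2.32 ± 0.11, adjusted p = 6.4e-17), Grm8 (-3.61 ± 0.35, adjusted p = 4.1e-10), Grin3a, Gabre, Gabrb2, Grin2a, Gria2 and Grm5. Gria2, with 26 counts in KO mTEClo, was at least 6.70-fold lower in KO mTEChi (adjusted p = 7.8e-04), and Grm8 fell from 13.8 ± 2.58 to 1.04 ± 0.705 CPM. Without the 2 KO mTEClo libraries of the 6, 16 genes were higher, beside 25.0% of all genes tested in that fit, and 6 lower, beside 23.3%, and the calls for Gria2 (adjusted p = 0.067) and Grm5 (-0.88, adjusted p = 0.62) ended. Leaving out KO mTEClo replicate 3 alone also ended the call for Grm5 (-1.96, adjusted p = 0.066), and leaving out replicate 4 that for Grik5 (0.36, adjusted p = 0.053).

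Within the KO groups some receptor genes split by the age of the mice, 2 libraries of 5 weeks against 2 of 6 weeks, by more than 1.5-fold between the nearest values. The split was not tested. In KO mTEChi, Gabbr2, Grid1, Grik2, Grik3 and Grm4 were higher at 5 weeks (12.2% of the 41 tested, beside 3.32% of all genes tested), and Gabrb2 and Gria4 were lower (4.88%, beside 5.05%). In KO mTEClo, Grid1, Grik2, Grin2c, Grin2d and Grm4 were higher at 5 weeks (12.2%, beside 6.01%), and Gabrb1, Gabre, Gabrg3, Gria2, Gria3, Grin3a and Grm5 were lower (17.1%, beside 7.32%). Grid1, Grik2 and Grm4 appear in both populations. However, Grik2 had only 6 counts over KO mTEClo and 10 over KO mTEChi, and Gabrb2 only 3 over KO mTEChi. Against values of 0 any count meets this rule, so that splits at such counts are uncertain. In KO mTEClo the age and the absence of mitochondrial counts fall on the same libraries and cannot be told apart.

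Genes that make, carry or anchor the same transmitters and receptors were followed in 5 lists, to be read beside the 28.0% of all genes tested that were lower and the 25.7% that were higher in KO mTEChi. Of 7 tested genes for the synthesis, transport and breakdown of GABA, 7 were lower in KO mTEChi and 0 higher, with a median change of -3.77 (the same with genes at 0 at their bound) beside -0.01. The glial GABA transporter gene Slc6a11 went from 18.3 ± 7.78 CPM in WT to 0 in all KO mTEChi libraries, at least 61.2-fold lower (adjusted p = 4.9e-09). The betaine and GABA transporter gene Slc6a12 went from 9.48 ± 1.70 CPM to 0, at least 31.7-fold lower (adjusted p = 2.3e-09). Slc6a13, of liver, kidney and meninges, fell from 12.1 ± 3.04 to 0.912 ± 0.432 CPM (-3.77 ± 0.43, adjusted p = 3.5e-08). Slc6a11, Slc6a12 and Slc6a13 had group means of at most 0.912 CPM outside WT mTEChi. They thus entered the test through the group in which they were high. Other genes of the 5 lists can have entered in the same way, so that these counts, too, are only a description. In mTEClo 0 of the 7 tested genes were lower (beside 9.69% of all genes tested) and 1 higher (14.3%, beside 12.0%).

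Of 13 tested genes of glutamate transport and metabolism, 7 were lower and 3 higher in KO mTEChi. Slc17a6, which loads glutamate into synaptic vesicles, had 304 counts in WT mTEChi and 1 in KO, a ratio of 164 (95% counting interval 29.2 to 6492.5, adjusted p = 1.8e-10). The glutamate uptake gene Slc1a3 rose from 232 ± 19.1 to 439 ± 18.3 CPM (0.93 ± 0.10, adjusted p = 1.3e-08), and the neutral amino acid transporter gene Slc1a5 fell by 1.39 ± 0.17 on the log2 scale (adjusted p = 1.2e-07). The median of this list was -0.30. In mTEClo 4 were lower (30.8%, beside 9.69% of all genes tested) and 2 higher (15.4%, beside 12.0%).

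Of 15 tested genes of the inhibitory synapse scaffold and GABA receptor partners, 8 were lower (53.3%) and 4 higher (26.7%), with a median of -0.90. Among the lower were Kctd12, an auxiliary chain of GABA-B receptors (595 ± 117 to 79.4 ± 22.6 CPM, -2.94 ± 0.31, adjusted p = 1.7e-07), and Gabarapl1, which acts in autophagy and receptor trafficking (-1.50 ± 0.14, adjusted p = 4.5e-10). Iqsec3, a binding partner of gephyrin, went from 16.2 ± 4.32 CPM to 0, at least 54.3-fold lower (adjusted p = 1.5e-08). Of 31 tested auxiliary subunits and scaffold genes of glutamate receptors, 11 were lower (35.5%) and 9 higher (29.0%), shares near those of all genes tested, with a median of 0.11. The AMPA receptor auxiliary gene Cacng8 rose from 20.6 ± 5.90 to 60.9 ± 9.43 CPM (1.6 ± 0.21, adjusted p = 3.1e-07), and the postsynaptic scaffold gene Dlgap1 from 14.8 ± 1.82 to 59.3 ± 7.09 CPM (2.08 ± 0.18, adjusted p = 2.7e-10). Its paralogue Dlgap2 had 101 counts in WT and 2 in KO, a ratio of 27.2 (95% counting interval 7.34 to 228, adjusted p = 2.5e-07).

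The glycine, nicotinic and serotonin receptor subunits, which share the Cys-loop fold with GABA-A subunits, had 8 lower and 6 higher genes of 19 tested in KO mTEChi (42.1% and 31.6%, median 0.29). The neuronal nicotinic gene Chrnb2 rose from 42.9 ± 7.53 to 146 ± 6.04 CPM (1.73 ± 0.12, adjusted p = 8.1e-12) and Chrna10, of cochlear hair cells, by 1.49 ± 0.21 (adjusted p = 7.9e-07), while the muscle gene Chrna1 fell from 22.1 ± 4.02 to 6.02 ± 0.897 CPM (-1.74 ± 0.22, adjusted p = 1.3e-07). These lists are described by their counts, and whether they differ from the receptor genes was not tested.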

How the data were processed

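RNA of sorted mTECs was measured in 23 libraries. The authors deposited whole-number read counts per gene and library. Tools named in the submitters' processing notes are HTSeq 0.11.2, STAR 2.7.3a, edgeR, fastp 0.20.0, Picard 2.21.1 and SAMtools 1.9, and the builds are GRCm38 and mm10. Their roles and settings are not given in the sources used here, and the deposited normalized table was not used. Per the labels' protocols, reverse transcription used oligo-dT and selected random primers and libraries were made by Tn5 tagmentation, which keeps no strand.

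From the counts, genes passing filterByExpr with a minimum count of 10 in the group design (19310) were scaled by TMM and fitted in edgeR 4.0.16 (R 4.3.3, limma 3.58.1) with group and sex over all 23 libraries, with the robust quasi-likelihood F test and Benjamini-Hochberg adjustment over all genes tested at 0.05. The SE is the log2 change divided by the square root of F. CPM are on the TMM scale, and CPM per kb divides by the length of the union of exons in the annotation. Where a group had 0 counts, the fold is a bound against 3 counts over the group, and with 1 to 3 counts it is a ratio with an exact 95% counting interval. The scripts were tested on simulated data with known changes.

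The genes and lists were chosen with earlier results of these data known. Full values went to the 14 genes with the smallest adjusted p in KO against WT mTEChi, and up to 3 genes of each further list were named by the smallest p in that comparison. Other genes were named after their values were seen. Grouping followed the labels. In the KO groups libraries with the same replicate number deviated together (correlations of 0.164, 0.197, 0.139 and 0.222 over genes). However, KO mTEClo replicate 4 correlated more with a KO mTEChi library of another number. Replicates 1 and 2 also share an age in both populations, as do 3 and 4. Pairing by number is thus possible but not shown, and the main fit has no term for it. The WT numbers did not pair libraries. Alternatives were other scalings (RLE, upper quartile), filters and thresholds, DESeq2 1.42.0, no sex term, age in the fit, a replicate block, fewer libraries, leaving out each library and, chosen after seeing the data, a term for the 6 libraries without mitochondrial counts and KO mTEClo without its 2 of these. Some genes that the symbol rule finds count in the totals but are not reported here by name or drawn.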

Additional observations from a re-analysis of the deposited data

Results flagged for a closer look

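Single libraries stood apart within their group in 3 of the 40 groups examined, where chance marks about 1 in 20 groups. Grm5 was 4.58 CPM in WT mTEClo replicate 6 against a group median of 1.50. Grm2 was 1.27 CPM in WT mTEClo replicate 2, but it had only 5 counts over the 8 libraries of that group. Grik2 was 7.50 CPM in WT mTEChi replicate 3.

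The KO effect differed between mTEChi and mTEClo, by edgeR's test of the difference, in 19 of the 41 genes. Among the NMDA genes the difference (log2, mTEChi minus mTEClo) was -5.88 for Grin2a, -2.27 for Grin3a and 1.41 for Grin2d. Among the AMPA genes it was -8.10 for Gria2 (adjusted p = 3.4e-05), which was at 0 in KO mTEChi so that its size depends on the prior count, -3.23 for Gria4 (adjusted p = 0.039) and -1.0 for Gria3 (adjusted p = 1.3e-04). Gria3 was higher in KO mTEClo and did not pass in mTEChi. The kainate gene Grik2 had -4.42 (adjusted p = 0.0017), the delta gene Grid1 1.25, and the scaffold gene Grid2ip -3.54 (adjusted p = 3.3e-05). Grik2 had 3 counts in WT mTEClo and 6 in KO mTEClo, and Gria4 4 in each, so that the sizes of these 2 differences are uncertain.

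Of the metabotropic receptor genes, Grm5 had -5.04 (adjusted p = 5.9e-05), Grm8 -2.45 (adjusted p = 1.0e-04), Grm6 -7.13 (adjusted p = 0.0011) and Grm7 -1.07 (adjusted p = 0.015). The size for Grm6 depends on the prior count, with 1 count in WT mTEClo, 4 in KO mTEClo and 1 in KO mTEChi. Of the GABA-A genes, Gabrb2 had -4.21, Gabrr2 -2.31 (adjusted p = 0.0098) and Gabra5, at 0 in KO mTEChi, -7.00 (adjusted p = 0.035). Both GABA-B genes differed, Gabbr1 by -0.78 (adjusted p = 4.8e-05) and Gabbr2 by -1.84 (adjusted p = 0.028). The calls ended for Gabbr2 without KO mTEClo replicate 1 or 4, for Gabra5 without KO mTEClo replicate 2, for Grid1 without KO mTEClo replicate 3 or 4, and for Grm6 and Grm7 without KO mTEClo replicate 1. The call for Gria4 ended without WT mTEClo replicate 3, 5, 6 or 8, KO mTEClo replicate 1, 3 or 4, WT mTEChi replicate 4 or KO mTEChi replicate 1 or 2, with adjusted p between 0.052 and 0.16. Among 5-week males WT mTEClo had only replicate 6, so that effect sizes alone are given. The differences there were -1.68 for Grm5, -0.29 for Gria3, -0.65 for Gabrr2, -1.18 for Gabbr2 and -1.47 for Grin3a. They were -7.66 for Gabra5, -5.58 for Gria4, 0.31 for Grid1 and -3.65 for Grik2. Without the 2 KO mTEClo libraries that lack mitochondrial counts they were -3.14 for Grm5 (adjusted p = 0.17), -2.09 for Gabrr2 (adjusted p = 0.14) and 0.54 for Grid1 (adjusted p = 0.34), and the call for Gria4 ended. With the term for the 6 such libraries Grm7 was at -0.70 (adjusted p = 0.13), and the calls for Gabbr2, Gabra5, Gria4, Grik2 and Grm6 ended.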

How the results depend on the processing

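With a term for the 6 libraries without mitochondrial counts, 15 genes were lower in KO mTEChi and Grm4 turned to 0.58. In KO mTEClo that term turned Gabrb1 to -0.19 and Grin3a to -0.09, and leaving out the 2 libraries turned them to -0.19 and -0.10, while Grin2d passed with the term (1.14). Grin3a was -0.31 among 5-week males, of which WT mTEClo had only replicate 6. The cause of these changes was not tested. In KO mTEChi 2 genes were higher at over 2-fold. DESeq2 gave 25 lower and 7 higher, beside 5678 and 4462 of all 19310 genes tested. In KO mTEClo, age in the fit left 1 lower and 3 higher genes, beside 679 lower and 825 higher of all 19310 genes tested. Without age the calls over all genes were 1871 and 2315. A fit of the mTEClo groups alone left 4 higher, beside 1675 of 16569, and an adjusted p under 0.01 left 4 higher. Lower calls between the KO populations were 4 in a fit of those groups alone, beside 4221 of all genes in that fit, which tests fewer genes (15561). For the difference between populations, 5-week males gave 10 lower genes, and 1 was higher with no filter, among 5-week males, without the 2 KO mTEClo libraries and at an adjusted p under 0.01.

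Leaving out each library in turn gave 24 to 26 lower and 6 to 8 higher genes in KO mTEChi, 2 to 4 and 4 to 7 in KO mTEClo (4 higher without WT mTEClo replicate 4), 4 to 5 and 31 to 34 between the WT populations, 7 to 8 and 18 to 19 between the KO populations, and 15 to 18 and 1 to 2 for the difference (1 higher without KO mTEClo replicate 3 or 4). Over all genes, the fit without WT mTEClo replicate 4 gave 1855 higher of 19121 in KO mTEClo. Those without KO mTEClo replicate 3 and 4 gave 1801 of 19664 and 1847 of 19671 higher for the difference. The replicate block gave libraries with the same number a shared effect in all groups, WT and KO alike. It is thus no check of the pairing of KO libraries. With this block KO mTEChi had 24 lower and 8 higher genes, losing Gabrr2. KO mTEClo lost Gabrb1 (1.37, adjusted p = 0.075) and Grin3a (0.66, adjusted p = 0.08), and the WT comparison lost Grin1os (0.71, adjusted p = 0.054). The difference lost Gabbr2, Gabra5 and Gria4. The block changed no call between the KO populations.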

Other observations

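In KO mTEClo 10 of 19 tested glycine, nicotinic and serotonin receptor subunit genes were higher than in WT (52.6%, beside 12.0% of all genes tested) and 0 lower (beside 9.69%), and of 31 auxiliary and scaffold genes of glutamate receptors 8 were higher (25.8%) and 2 lower (6.45%). In WT mTEChi 16 of the 19 Cys-loop genes were higher than in WT mTEClo (84.2%, beside 36.7%) and 1 lower (5.26%, beside 33.4%), and 17 of the 31 auxiliary and scaffold genes were higher (54.8%) and 6 lower (19.4%).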
